A study of Mus musculus with 4 samples.

Results

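Kit and its ligand Kitl, 2 of the 20076 genes in the deposited single-cell count matrix of mouse lung, were followed by cell type and genotype. Both genes were matched by symbol. Whole lungs of 4 mice were dissociated to single cells and sequenced on the 10x Genomics platform, which counts captured RNA molecules by unique molecular identifiers (UMIs). Libraries labelled WT (replicates 1 and 2) came from mice with the genotype ERG fl/fl, which carry floxed alleles of the endothelial transcription factor gene Erg and no Cre. Libraries labelled ERG CKO (replicates 1 and 2) came from CDH5-CreER(T):ERG fl/fl mice, in which a tamoxifen-inducible Cre recombinase is driven by the endothelial Cdh5 promoter. Both genotypes received 5 daily injections of 0.5 mg tamoxifen, and lungs were taken 90 days after them. The age of these mice is not given in the sources used here, and nothing says whether mice of a group shared a litter.

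KIT is a receptor tyrosine kinase, and its only ligand is the product of Kitl, also called stem cell factor. KITL is made as a membrane-bound protein that signals to a neighbouring cell, and a longer splice form is cut from the surface by proteases. Binding pairs 2 receptors, which then activate RAS and MAP kinases, PI3 kinase and JAK/STAT signalling. The pair is best known in blood progenitors, mast cells, melanocytes and germ cells. In the lung, Kit is a known gene of general capillary (gCap) endothelial cells (ECs), which form most of the alveolar capillary net, whereas aerocytes (aCap ECs) are the large, thin capillary cells specialised for gas exchange.

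In the GENCODE vM21 annotation of mm10, Kit (ENSMUSG00000005672.12) lies on the plus strand of chr5:75574916-75656722 and Kitl (ENSMUSG00000019966.18) on the plus strand of chr10:100015630-100100416. The matrix holds 1 count per gene, so the membrane-bound and soluble forms of Kitl were not separated. ERG belongs to the ETS family, whose members bind DNA around the core GGAA, so the letters of both promoters are shown with this core, on either strand, in capitals. The RefSeq sequences (build GRCm38.p6) cover 250 bases before and 50 bases after each start. The Kit sequence is the part of this window that precedes every annotated start, chr5:75574737-75574915. The Kitl sequence is a stretch of 30 bases that holds 2 cores, chr10:100015734-100015763. It lies after the first annotated GENCODE start and before the RefSeq start of its window.
Kit: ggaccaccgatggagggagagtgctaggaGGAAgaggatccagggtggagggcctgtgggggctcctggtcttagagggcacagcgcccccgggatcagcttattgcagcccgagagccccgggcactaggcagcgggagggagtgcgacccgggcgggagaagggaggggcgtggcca
Kitl: ccccgaggctccGGAAgGGAAggaggcgtg
The whole 300-base window held 1 GGAA for Kit and 4 for Kitl, where 96.0% of all 32851 promoters held at least 1 and the median was 3. The longer ETS sequence CCGGAAG, which contains the core, was found once for Kitl and not for Kit, and 8.86% of all promoters held it. These are matches of letters, and binding was not measured in these libraries.

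The libraries held 2264 and 2150 WT cells and 3097 and 1852 ERG CKO cells, with medians of 4611 to 4899 UMIs per cell and totals of 11263911 to 18646776 UMIs. Cells were clustered without Kit and Kitl, and clusters were named from marker lists. At 85.4 and 87.8 CPM (the UMIs of a gene scaled to the class total) in WT ECs and 104 and 82.0 CPM in ERG CKO ECs, Erg itself did not set the groups apart (log2 fold change 0.08, SE 0.15, adjusted p = 0.871, edgeR). A count per gene cannot show whether the floxed exons were lost, so groups are named as the libraries are labelled. Between libraries, 0 to 4 cell barcodes were shared per pair. Counts were summed per library and class and tested with the edgeR quasi-likelihood test, with Benjamini-Hochberg adjustment over all genes of a class and a limit of 0.05. With 2 libraries per group, an exact permutation test of 1 value cannot give a p below 0.333.

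Kit and Kitl were highest in different capillary cells. Among the named classes, Kit was highest in gCap ECs and Kitl in aCap ECs in each of the 4 libraries. In gCap ECs, Kit stood at 480 and 503 CPM in WT versus 364 and 336 CPM in ERG CKO. In aCap ECs it stood at 49.3 and 30.8 CPM in WT versus 41.6 and 6.92 CPM in ERG CKO. Within a library the gCap level of Kit was thus 8.74 to 48.6 times the aCap level. Kitl ran the other way. In aCap ECs it reached 2196 and 1698 CPM in WT versus 919 and 968 CPM in ERG CKO. The gCap level was 255 and 247 CPM in WT versus 288 and 387 CPM in ERG CKO. The aCap level of Kitl was 8.60 and 6.87 times the gCap level in WT, and 3.19 and 2.50 times in ERG CKO. These differences between classes describe cells that were grouped by their own expression and carry no test.

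Of all 1378 and 1390 Kit UMIs of the WT libraries, gCap ECs held 63.4% and 71.8%, and aCap ECs held 1.16% and 1.15%. In ERG CKO the gCap share of the 1588 and 751 Kit UMIs was 51.8% and 65.9%. aCap ECs were few, 43 and 71 cells in WT versus 109 and 96 in ERG CKO, yet they held 34.1% and 45.6% of the WT Kitl UMIs and 26.4% and 35.3% of those of ERG CKO. In the larger gCap class, with 443 and 510 WT and 417 and 318 ERG CKO cells, the share of Kitl UMIs was 22.2% and 25.4% in WT versus 26.8% and 35.9% in ERG CKO. UMIs of both genes were found in the same cell in 42.2% and 41.0% of WT versus 47.5% and 38.7% of ERG CKO gCap ECs. Thus receptor and ligand RNA were often caught together in gCap ECs, whereas most aCap ECs (88.4% and 90.1% in WT, 78.9% and 91.7% in ERG CKO) held Kitl alone.

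**Figure D1:**
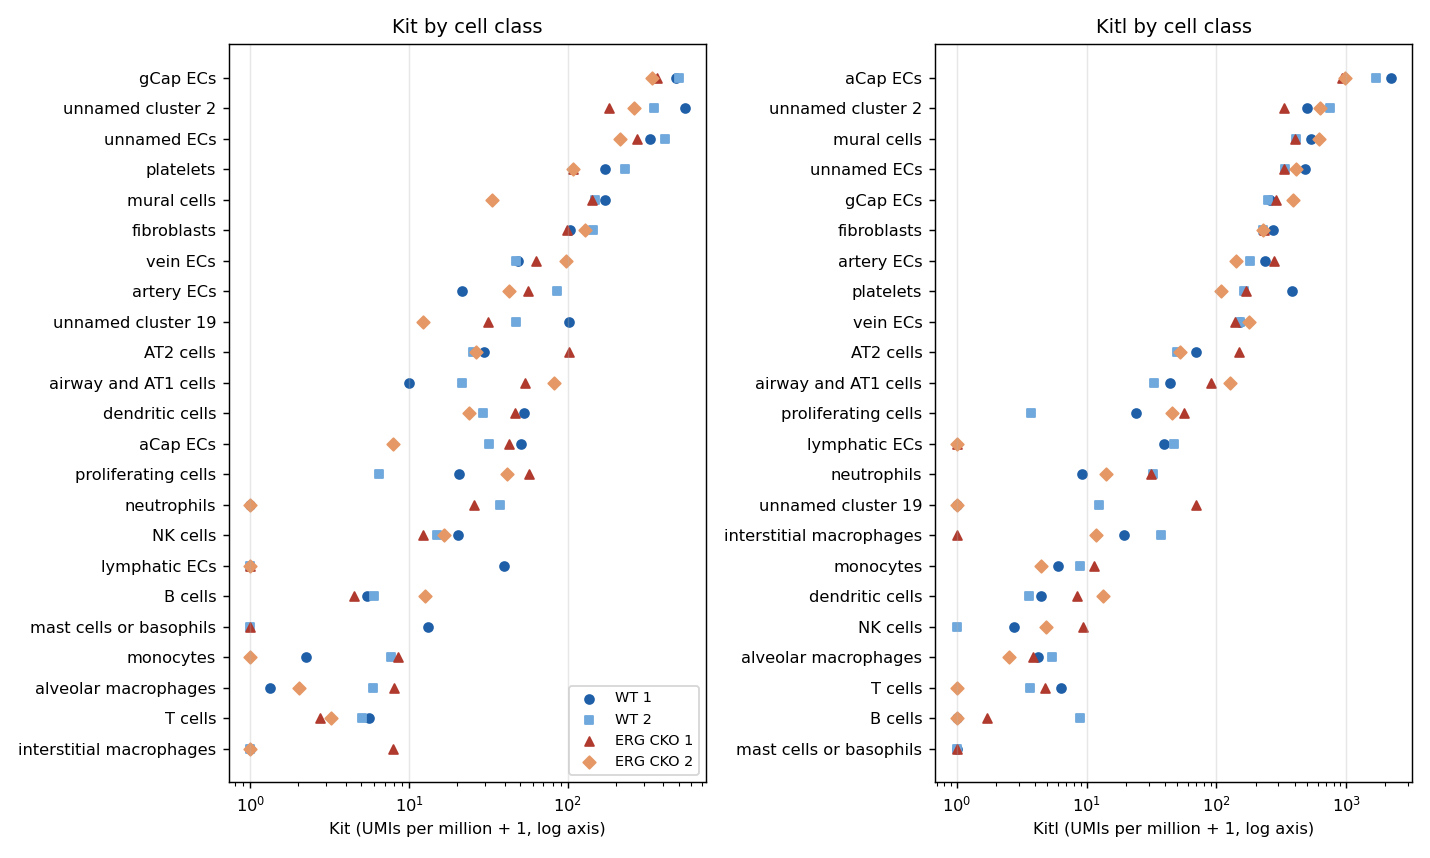
Level of Kit (left) and Kitl (right) in each cell class, as CPM plus 1 on a log axis, with a point per library and classes ordered by their mean. Kit is highest in gCap ECs and unnamed cluster 2, and Kitl is highest in aCap ECs, where the WT points (2196 and 1698) lie above the ERG CKO points (919 and 968).

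Outside the capillaries, vein, artery and lymphatic ECs carried little Kit. In vein ECs, Kit stood at 47.7 and 45.9 CPM in WT versus 62.1 and 96.6 CPM in ERG CKO. In artery ECs, it stood at 20.5 and 84.7 CPM in WT versus 55.5 and 41.6 CPM in ERG CKO. Artery, vein and aCap ECs overlapped in Kit, so these neighbours in the order did not differ beyond their spread. For Kitl, artery ECs (236 and 179 CPM in WT, 277 and 142 in ERG CKO), vein ECs (152 and 150 in WT, 138 and 178 in ERG CKO) and gCap ECs formed a middle band far below aCap ECs, and artery and vein ECs overlapped. In 25 lymphatic ECs, 1 UMI of Kit and 2 UMIs of Kitl were found, at or under the level of 3 UMIs (32.1 CPM) that a count of 0 would allow. Unnamed ECs, 3 clusters led by platelet genes, by Col13a1 or by lymphocyte genes, were close to gCap ECs in Kit, at 327 and 408 CPM (36 and 42 cells) in WT and 273 and 212 CPM (104 and 51 cells) in ERG CKO. They held 241 of the 1136 EC Kit UMIs of ERG CKO replicate 1, and their log2 fold change of Kit was −0.62 (SE 0.25, adjusted p = 0.302, edgeR). A cluster of 889 shallow cells that carried endothelial genes and stayed unnamed (unnamed cluster 2, medians of 954 to 1083 UMIs) held Kit at 542 and 350 CPM in WT versus 181 and 259 CPM in ERG CKO.

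The genes whose level followed Kit most closely over 20 classes were Wfdc1 (Pearson r = 0.93), Sema3c (0.91), Npr3 (0.91), Gpihbp1 (0.91) and Casc4 (0.90), out of 8026 genes compared, and each was highest in gCap ECs. Gpihbp1, which carries lipoprotein lipase to the capillary lumen, and the guidance ligand Sema3c are markers used to name that class. Kitl was followed most closely by Nes (0.99), Mapt (0.97), Pcdh1 (0.97), Slc16a9 (0.97) and Mxra7 (0.96), each highest in aCap ECs. Nes encodes the intermediate filament nestin, and Mapt encodes the microtubule protein tau. Kit and Kitl correlated with each other at r = 0.76. These correlations use class means of log2(CPM + 10) over the 4 libraries, and classes of the same libraries share their depth and stray RNA.

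Kitl fell in aCap ECs of ERG CKO lungs, to less than the level of either WT library. The 2196 and 1698 CPM of WT (713 and 883 UMIs) compared with 919 and 968 CPM in ERG CKO (640 and 560 UMIs), so the groups did not overlap. The log2 fold change was −1.07 (SE 0.18, 95% interval −1.43 to −0.70, adjusted p = 5.91e-05, edgeR), against a background of 11.6% of 7014 genes called in aCap ECs, 6.14% lower and 5.49% higher. The shift was visible cell by cell. The median aCap EC held 13 and 12 Kitl UMIs in WT versus 4 and 5 in ERG CKO, while the median cell held 6992 and 7455 UMIs of all genes in WT versus 6013 and 5718 in ERG CKO. Cells with 10 or more Kitl UMIs were 79.1% and 57.7% of aCap ECs in WT, compared with 17.4% and 17.7% in ERG CKO. All 114 WT aCap ECs held a Kitl UMI, whereas 10 of 109 and 5 of 96 ERG CKO aCap ECs held none. No aCap EC had fewer than 1000 UMIs. With each cell thinned to 1000 UMIs, 86.0% and 80.3% of WT versus 51.4% and 62.5% of ERG CKO aCap ECs held a Kitl UMI.

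**Figure D2:**
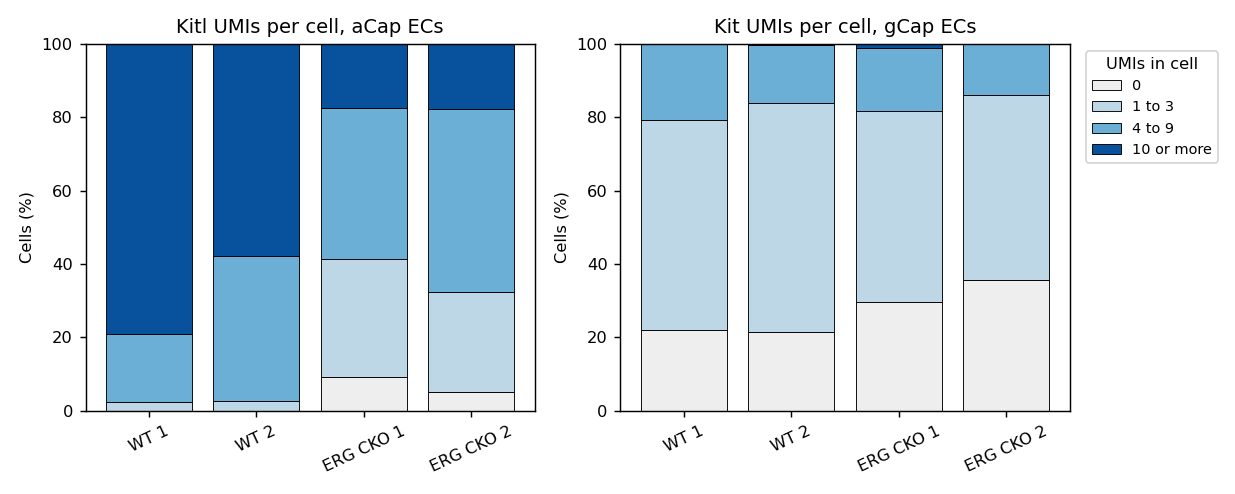
Share of cells (percent, stacked to 100) by the number of UMIs caught per cell, for Kitl in aCap ECs (left) and Kit in gCap ECs (right), with a bar per library. Cells with 10 or more Kitl UMIs are the largest group in both WT libraries (79.1% and 57.7%) and under 18% in both ERG CKO libraries.

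The fall of Kitl in aCap ECs went with a fall of the genes that define these cells. All 10 aCap markers were called lower there, where 6.14% of all genes were called lower and 5.49% higher. Their median log2 fold change was −1.10, beside a median of 0.01 over all genes tested. Car4, the capillary carbonic anhydrase, went from 3304 and 3667 CPM to 1482 and 1513 CPM (−1.25, SE 0.17), and the endothelin receptor gene Ednrb from 2337 and 2084 CPM to 923 and 1816 CPM (−0.72, SE 0.21). Of 10 pan-endothelial markers, 5 were called lower and 1, Emcn, higher, and the signs of all 10 were 7 negative and 3 positive. The 8 gCap markers summed to 2602 and 2044 CPM in WT versus 1946 and 1532 CPM in ERG CKO aCap ECs, so both ERG CKO sums lay below both WT sums. Single members differed in direction. Of 7 tested, 5 were negative and 2 positive, at a median of −0.20. Adgre5 and Hilpda were called lower, whereas Sema3c (0.75) and Cxcl12 (0.55) were positive and not called. Without alignment Hilpda was not called (0.02) and Plvap was called higher (1.05). Platelet markers summed to 55.4 and 98.1 CPM in WT versus 290 and 112 CPM in ERG CKO aCap ECs. Fibroblast markers summed to 43.1 and 30.8 CPM in WT versus 67.5 and 53.6 CPM in ERG CKO aCap ECs, compared with 8890 to 14649 CPM in fibroblasts. The part of these markers in the Kitl result was not tested. Whether fewer Kitl molecules per aerocyte or a less distinct aCap cluster lay behind the values cannot be told apart with clusters built from the same cells. With capillary cells assigned by their markers instead of clusters, a choice made after the data were seen, the log2 fold change of Kitl was −1.35 (SE 0.16, adjusted p = 6.10e-05).

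Kitl in gCap ECs had the opposite sign without passing the limit. Its levels were 255 and 247 CPM in WT versus 288 and 387 CPM in ERG CKO, so both ERG CKO libraries lay above both WT libraries. The log2 fold change was 0.38 (SE 0.16, 95% interval 0.03 to 0.73, adjusted p = 0.300, edgeR). A Kitl UMI was found in 233 of 443 and 255 of 510 WT gCap ECs (52.6% in replicate 1), compared with 63.8% and 62.6% of gCap ECs in ERG CKO. Thinned to 1000 UMIs per cell, the shares were 18.6% and 19.4% in WT versus 22.8% and 29.1% in ERG CKO. Without ERG CKO replicate 1, which left 1 ERG CKO library, the change was 0.56. With cells clustered without aligning the libraries it was 0.19 with an adjusted p of 0.837. In the same cells, 5 of 9 aCap markers tested were called higher, with a median of 1.05 over the 9, where 2.1% of all genes were called higher. Of the 5, Apln (9 and 4 UMIs in WT) and Chst1 (0 and 4) met the filter on low counts only through ERG CKO. The count and the median thus rest partly on genes kept by the change itself. Without alignment 3 of these 5 were tested and 0 called. Apln, which encodes the ligand apelin, went from 4.94 and 2.01 CPM in WT gCap ECs to 59.8 and 36.0 CPM in ERG CKO.

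The response of Kitl differed between the capillary classes. In a fit of both classes with each library as a block, the change in aCap ECs minus that in gCap ECs was −1.44 on the log2 scale (SE 0.17, adjusted p = 2.63e-06, edgeR), where 6.13% of 9450 genes were called and 3.51% in this direction. Over all ECs together, Kitl stood at 494 and 477 CPM in WT versus 370 and 492 CPM in ERG CKO, and the log2 fold change was −0.21 (SE 0.16, 95% interval −0.58 to 0.15, adjusted p = 0.586). The aCap class was 7.47% and 10.2% of WT ECs and 15.0% and 19.2% of ERG CKO ECs. Its part of the Kitl UMIs of all ECs was 53.4% and 58.2% in WT versus 37.7% and 42.3% in ERG CKO.

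**Figure D3:**
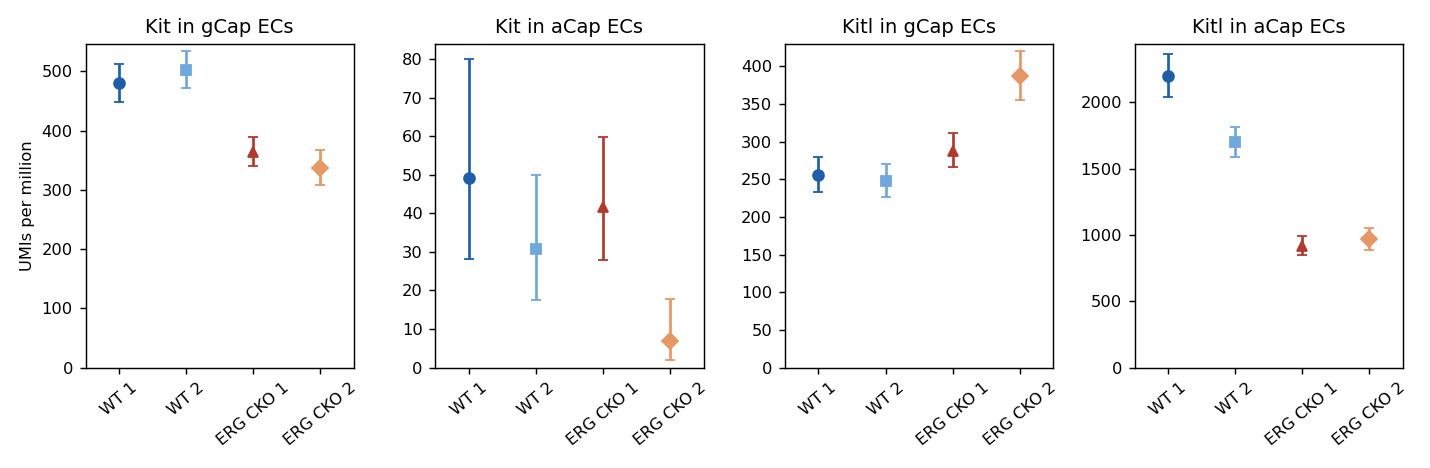
Level of Kit and Kitl in gCap and aCap ECs of each library, in CPM with exact 95% Poisson intervals that cover counting error only. Kitl in aCap ECs drops from 2196 and 1698 to 919 and 968, whereas Kitl in gCap ECs goes from 255 and 247 to 288 and 387.

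Kit was lower in ERG CKO over all ECs, at the edge of the limit. Its level was 359 and 354 CPM in WT versus 247 and 222 CPM in ERG CKO, from 970 and 1126 UMIs in WT versus 1136 and 597 in ERG CKO, and the groups did not overlap. The log2 fold change was −0.64 (SE 0.13, 95% interval −0.94 to −0.34, adjusted p = 0.0463, edgeR), in a comparison that called 3.09% of 10705 genes 1.25% as lower and 1.84% as higher. In gCap and aCap ECs summed as capillary ECs, Kit stood at 414 and 405 CPM in WT versus 288 and 243 CPM in ERG CKO (−0.65, SE 0.15, 95% interval −0.98 to −0.33, adjusted p = 0.0259), where 5.33% of 10195 genes were called. The study had named Kit among capillary genes lowered in these libraries, so this result is not independent of that choice. The call was lost when WT replicate 1 or WT replicate 2 was left out, which left 1 WT library, with log2 fold changes of −0.63 and −0.66. The makeup of the class moved with this result, as gCap ECs, rich in Kit, were 76.9% and 73.5% of WT ECs and 57.4% and 63.5% of ERG CKO ECs, and its part was not tested.

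Within gCap ECs, Kit had the same sign at 480 and 503 CPM in WT versus 364 and 336 CPM in ERG CKO, but it missed the limit. The log2 fold change was −0.53 (SE 0.14, 95% interval −0.84 to −0.21, adjusted p = 0.0816, edgeR), where 3.29% of 9839 genes were called. It was −0.61 without ERG CKO replicate 1, which left 1 ERG CKO library. With cells clustered without aligning the libraries, where 1 gene was called in gCap ECs, it was −0.09 (SE 0.15, adjusted p = 0.940), so the size of the gCap difference depended on how the class was drawn. Kit UMIs were found in 77.9% and 78.4% of WT versus 70.3% and 64.5% of ERG CKO gCap ECs. Depth differed, with medians of 3979 and 3736 UMIs per cell in WT versus 4901 and 4227 in ERG CKO. Before scaling, the mean was 1.97 and 1.96 Kit UMIs per cell in WT versus 1.97 and 1.56 in ERG CKO. The mean of ERG CKO replicate 1 was thus level with WT before scaling, while its median of 1 UMI per cell was below the 2 of each WT library. With each cell thinned to 1000 UMIs, which left out 3 to 6 shallower cells per library, 37.3% and 37.9% of WT versus 28.8% and 30.4% of ERG CKO gCap ECs held a Kit UMI.

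The gCap class was made of 4 clusters, of which cluster 0 held the largest number of WT cells (199 and 209) and cluster 1 the largest number of ERG CKO cells (143 and 132). Kit had a negative log2 fold change in each of them. In cluster 0, Kit went from 451 and 439 CPM to 273 and 255 CPM (−0.77, SE 0.17, adjusted p = 0.0311, edgeR), in a comparison that called 2.36% of 8146 genes. In cluster 1, which was led by Cxcl12 and Lpl among others, the levels were 522 and 555 CPM in WT versus 418 and 402 CPM in ERG CKO (−0.41, SE 0.17, adjusted p = 0.467). Cluster 2, led by interferon-response genes such as Ifit1 and Iigp1, gave −0.51 (SE 0.21, adjusted p = 0.401), and cluster 6 gave −0.55 (SE 0.35, adjusted p = 0.635).

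Kit lay among other gCap genes in size of change. The 8 gCap markers had a median log2 fold change of −0.54 in gCap ECs, and 3 of them, Gpihbp1, Adgre5 and Glp1r, were called lower, where 1.19% of all genes were. Without alignment 0 of these 3 were called, and Gpihbp1 was at 0.02. In aCap ECs, Kit rested on 16 UMIs in each WT library and 29 and 4 in ERG CKO, and its log2 fold change was −0.61 (SE 0.49, 95% interval −1.62 to 0.39, adjusted p = 0.554, edgeR). Without ERG CKO replicate 1 it was −2.46, which rests on the 4 UMIs of ERG CKO replicate 2. A difference of the Kit response between gCap and aCap ECs was not detectable at this depth (−0.10, SE 0.46, adjusted p = 0.954), and with capillary cells assigned by markers it was 1.05 (SE 0.29, adjusted p = 0.0363), the opposite sign. In vein ECs Kit gave 0.55 (SE 0.38, adjusted p = 0.775), where 0.145% of genes were called.

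**Figure D4:**
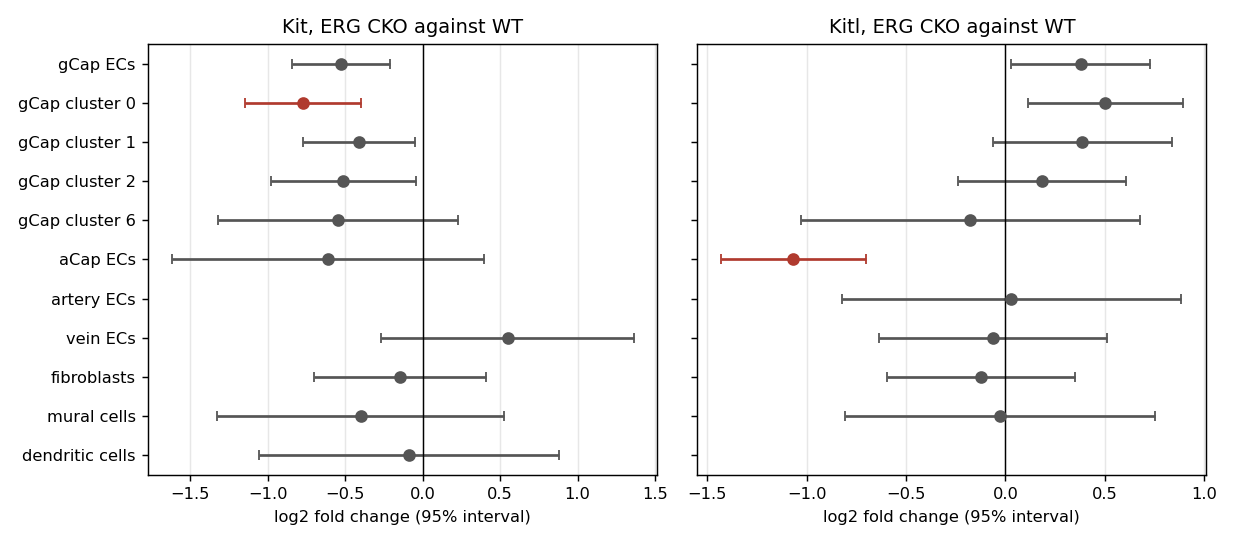
Log2 fold change of Kit (left) and Kitl (right) in ERG CKO against WT with 95% intervals, by class, with red for an adjusted p of at most 0.05 (edgeR) and grey for the rest. Kitl in aCap ECs (−1.07) and Kit in gCap cluster 0 (−0.77) are red, and the intervals of fibroblasts and mural cells span 0 for both genes.

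Mesenchymal cells carried Kitl, with no detectable difference between the genotypes. In fibroblasts (145 and 75 WT cells, 187 and 27 ERG CKO cells), Kitl stood at 274 and 228 CPM in WT versus 233 and 228 CPM in ERG CKO. The log2 fold change was −0.12 (SE 0.22, 95% interval −0.59 to 0.35, adjusted p = 0.965, edgeR), and the class called 0.81% of 7903 genes. In mural cells, the pericytes and smooth muscle cells around vessels, Kitl was higher, at 533 and 410 CPM in WT versus 402 and 612 CPM in ERG CKO, and only 16 cells came from ERG CKO replicate 2. The log2 fold change there was −0.03 (SE 0.35, 95% interval −0.81 to 0.75, adjusted p = 0.9999), and 0.0691% of 4342 genes were called. For both classes summed as mesenchyme, the levels were 368 and 297 CPM in WT versus 258 and 280 CPM in ERG CKO (−0.30, SE 0.21, 95% interval −0.74 to 0.14, adjusted p = 0.746), where 1.3% of genes were called. Mural cells were 67 of 212 and 49 of 124 mesenchymal cells in WT. In ERG CKO they were 46 of 233 and 16 of 43, and the part of this makeup was not tested. Mural cells and fibroblasts did not overlap in Kitl.

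Endothelial RNA was also found in the mesenchymal classes, beside Kit. Kit stood at 103 and 142 CPM in WT fibroblasts and 98.3 and 127 CPM in ERG CKO fibroblasts, and at 170 and 146 CPM in WT versus 141 and 32.2 CPM in ERG CKO mural cells. These were 21.4% to 37.7% of the gCap level of the same library in fibroblasts. All 10 endothelial markers had UMIs in the fibroblasts of each library, and their median was 29.9% to 44.6% of the gCap level. The share of Kit lay within the range of the 10 markers in WT replicate 2 and ERG CKO replicate 2. In WT replicate 1 and ERG CKO replicate 1 it lay below all 10. Emcn, called higher in ECs of ERG CKO, was also called higher in fibroblasts (82.3 and 71.1 CPM in WT, 409 and 370 CPM in ERG CKO). Among 343 fibroblasts with at least 1 UMI of these markers, 28.6% held a Kit UMI (118 CPM). Among the 91 fibroblasts with none, 1 cell held Kit, with 2 UMIs (9.12 CPM, exact 95% Poisson interval 1.10 to 33.0). The cells without endothelial UMIs were shallow, with medians of 803 to 1911 UMIs per cell against 2978 to 6376 in the others. Kitl was still present in them, at 141 CPM (31 UMIs, interval 96.1 to 201), compared with 255 CPM in fibroblasts that held endothelial UMIs. Of 14 mural cells without endothelial UMIs, 2 held Kitl and 0 held Kit, a share that allows up to 21.5% (Wilson). In T cells, which should lack both genes, 0.832% to 1.89% of cells held a Kit UMI (1.74 to 4.61 CPM) and at most 2.13% a Kitl UMI, at median depths of 5871 to 6383 UMIs.

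The same comparison set dendritic cells with Kit apart, and other immune cells less clearly. In dendritic cells, Kit stood at 51.7 and 28.3 CPM in WT versus 45.4 and 23.0 CPM in ERG CKO, or 5.63% to 12.5% of the gCap level, whereas the median endothelial marker stood at 0.15% to 2.57%. Of 67 dendritic cells without an endothelial UMI, 26.9% held Kit (46.5 CPM, interval 32.7 to 64.1), and of the 108 others 27.8% did (34.3 CPM). These cells were deep, with medians of 12692 to 15233 UMIs, and with 1000 UMIs per cell at most 2.63% held a Kit UMI. Natural killer (NK) cells without endothelial UMIs held Kit at 16.9 CPM (19 UMIs in 253 cells). An unnamed cluster of 118 cells, led by Csf2, Trdc, Il17a and Calca (unnamed cluster 19), held Kit at 101 and 45.8 CPM in WT versus 30.5 and 11.3 CPM in ERG CKO, the last from 1 UMI. Its 63 cells without endothelial UMIs held Kit at 37.7 CPM (9.52% of cells). The level was higher in its 55 cells with them, at 82.2 CPM (23.6% of cells), unlike in dendritic cells. Among airway and alveolar type 1 (AT1) cells, 0 of 44 cells without endothelial UMIs held Kit, which allows a share with a captured UMI of up to 8.03% (Wilson), and 22.2% of the 117 others did. Those 44 cells had medians of 6593 and 5427 UMIs in WT versus 1452.5 and 790 in ERG CKO. At such depth a count of 0 does not show that Kit was absent. Kit did not differ detectably between the genotypes in dendritic cells (log2 fold change −0.09, SE 0.44, adjusted p = 0.989, edgeR), in a class with 0.734% of genes called.

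**Figure D5:**
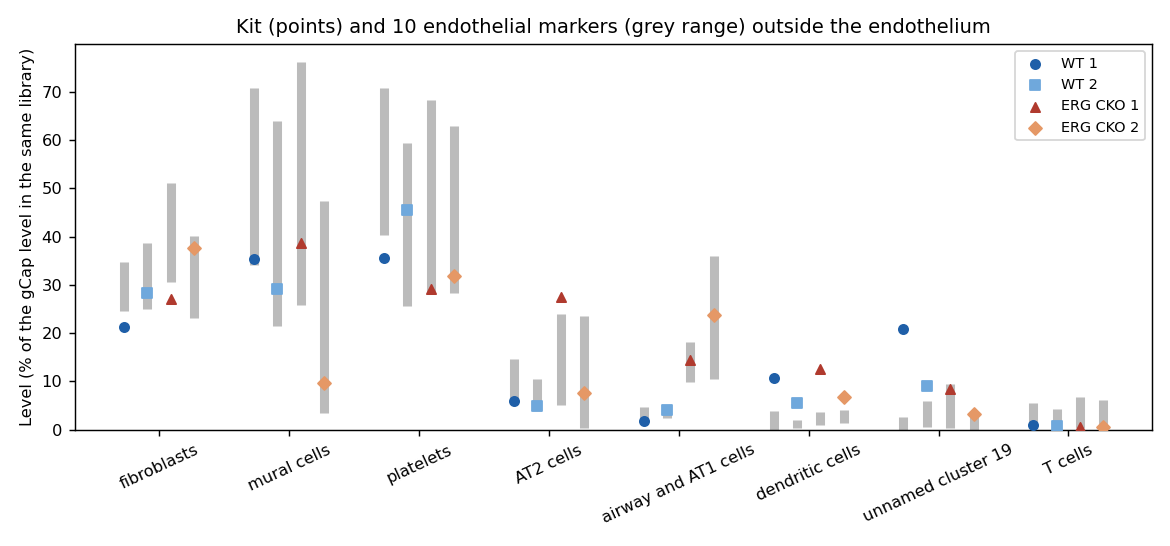
Kit (points) and the range over 10 endothelial markers (grey bars) in classes outside the endothelium, each as a percent of the gCap level of the same library. Kit falls in or near the grey range in fibroblasts, mural cells, platelets and T cells and lies above it in all 4 dendritic cell samples (5.63% to 12.5%).

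Mast cells, the classic KIT-bearing cells of tissue, could not be assessed. The cluster that held markers of mast cells or basophils had 20 and 11 WT cells, 3 cells of ERG CKO replicate 1 and none of ERG CKO replicate 2. The mast cell proteases Cma1 and Mcpt4 had 0 UMIs in its 34 cells, and 4 further mast cell markers were not among the genes of the matrix. Of 9 basophil genes, 8 were found in 47.1% to 100% of cells, among them Fcer1a in 82.4% and the basophil protease Mcpt8 in 61.8%, whereas Prss34, another basophil protease, was found in 1 of 34 cells. Hdc, the enzyme that makes histamine, was found in 97.1% and the carboxypeptidase gene Cpa3 in 82.4%, both of which basophils share with mast cells. Kit had 1 UMI in the 34 cells (6.75 CPM, exact 95% Poisson interval 0.17 to 37.6), and Kitl had none, which allows a level of up to 20.3 CPM. The markers thus went against the name mast cells, and the cluster is called here by its basophil genes. With 0 cells in a library, the class was not tested.

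The genes that relay or restrain the KIT signal were then read from fixed lists. Of 30 signal relay genes (adaptors, RAS, MAP kinases, PI3 kinase and STATs), 27 were tested in gCap ECs and 0 were called, at a median log2 fold change of 0.02, where 3.29% of all genes were called, so that 0 of 27 is near the background. The most abundant were Mapk3, the kinase ERK1 (375 and 384 CPM in WT, 352 and 410 CPM in ERG CKO), and Stat3 (227 and 198 CPM in WT, 212 and 161 CPM in ERG CKO). In aCap ECs, where 6.14% of genes were called lower, 1 of 25 was called, Hras, which fell from 228 and 212 CPM to 102 and 150 CPM (−0.83, SE 0.21, adjusted p = 0.00671, edgeR).

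Of 15 signal inhibitors, 13 were tested in gCap ECs, and Spry1, a feedback inhibitor of RAS and MAP kinase signalling, rose. It went from 22.0 and 26.2 CPM to 109 and 77.5 CPM (1.93, SE 0.22, adjusted p = 0.00105), among 2.1% of genes called higher. Without alignment of the libraries it was 0.46 (adjusted p = 0.783). In aCap ECs, Spry1 rose from 27.7 and 17.3 CPM to 187 and 104 CPM (2.73, SE 0.35, adjusted p = 1.04e-06, from 9 UMIs in each WT library), and its relative Spry4 from 12.3 and 25 CPM to 89.0 and 50.1 CPM (1.79, SE 0.40, adjusted p = 0.00201, from 4 and 13 WT UMIs), where 5.49% of genes were called higher. Another inhibitor of the same pathway, Spred1, was called higher over all ECs (36.2 CPM in both WT libraries, 59.0 and 58.7 CPM in ERG CKO, adjusted p = 0.0493). None of 12 tested inhibitors was called in fibroblasts, a class with 0.81% of all genes called, and Spry1 there stood at 153 and 164 CPM in WT.

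Of the proteases known to shed membrane proteins, 4 of 7 were tested in gCap ECs and none was called, which at 3.29% of all genes is near the background. Adam10 stood at 59.9 and 73.5 CPM in WT versus 91.7 and 111 CPM in ERG CKO gCap ECs (0.55, SE 0.17, adjusted p = 0.128), and Adam17 at 39.5 and 38.3 CPM in WT versus 32.8 and 28.5 CPM in ERG CKO. Receptors related to KIT (4 genes, among them the PDGF receptors) were too low for a test in either capillary class. Among the 7 ligands of those receptors, Csf1 and Pdgfa rose in aCap ECs, 2 of 4 tested, where 5.49% of genes were called higher. Csf1, which acts on macrophages, went from 3.08 and 11.5 CPM to 84.7 and 96.8 CPM (adjusted p = 1.04e-06). Its WT level rests on 1 and 6 UMIs against 59 and 56 in ERG CKO, so the size of the fold is loose. Csf1 met the filter on low counts only through ERG CKO, so its call and its place among the 2 are not independent of the change. Pdgfa, which acts on fibroblasts, went from 18.5 and 19.2 CPM to 77.5 and 70.9 CPM (1.93, SE 0.37, adjusted p = 0.000304, from 6 and 10 WT UMIs). No other ligand of the list was called in aCap ECs.

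Of 15 genes known to regulate Kit transcription, 11 were tested in gCap ECs and 1 was called (3.29% of all genes), Fli1, the closest relative of ERG, which rose from 135 and 121 CPM to 244 and 209 CPM (0.79, SE 0.15, adjusted p = 0.0175), although with cells clustered without aligning the libraries its change was −0.10 (adjusted p = 0.945). In aCap ECs, 3 of 9 were called, where 11.6% of all genes were. Fli1 rose from 64.7 and 73.1 CPM to 240 and 223 CPM (1.71, SE 0.23, adjusted p = 1.52e-06) and Ets1, also of the ETS family, from 265 and 235 CPM to 426 and 432 CPM (0.76, SE 0.19, adjusted p = 0.00603). Lmo2, an adaptor of blood and endothelial transcription complexes, fell there from 160 and 213 CPM to 123 and 83.0 CPM (−0.89, SE 0.23, adjusted p = 0.00738), a call lost without alignment (−0.30, adjusted p = 0.410). Gata2, a known activator of Kit in blood cells, did not pass (497 and 382 CPM in WT gCap ECs, 314 and 359 CPM in ERG CKO, adjusted p = 0.242).

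Of 9 capillary genes that the study names beside Kit, some of them chosen on these libraries and so no independent evidence, 3 were called lower in gCap ECs and none higher, with 1.19% of genes called lower. These were the apelin receptor gene Aplnr (143 and 186 CPM to 86.8 and 83.6 CPM, −0.99, SE 0.16), the angiopoietin receptor gene Tek (611 and 649 CPM to 374 and 359 CPM, −0.82, SE 0.14) and the ephrin gene Efna1 (108 and 176 CPM to 58.9 and 78.2 CPM, −1.11, SE 0.22). Without alignment none of the 3 was called, at −1.35 for Aplnr (adjusted p = 0.200), −0.27 for Tek (0.754) and −0.65 for Efna1 (0.634). In aCap ECs, 3 of 7 tested were called lower, where 6.14% of genes were. Tek and Efna1 fell there as well, Tek losing its call without alignment (−0.58, adjusted p = 0.0572). Kdr, a receptor for VEGF, fell there from 2467 and 2136 CPM to 923 and 1297 CPM (−1.08, SE 0.18, adjusted p = 7.27e-05). In fibroblasts and in mesenchyme as a whole, 0 members of these 7 lists were called. Of all genes, 0.81% were called in fibroblasts and 1.3% in mesenchyme, so 0 is near the background.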

How the data were processed

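Droplet single-cell RNA-seq was analysed in 4 lung libraries, 2 labelled WT and 2 labelled ERG CKO. The deposited matrix holds unscaled UMI counts, made by the authors from reads on mm10 with Cell Ranger 3.1.0 (build and version per the submitters' processing notes). The study kept fewer cells than the 9363 of the matrix after a quality filter whose limits are not given in the sources used here. The lowest cell had 500 UMIs and 300 genes, and none was removed. Scrublet (scanpy 1.11.5) called 60 cells (0.641%) doublets, which were kept. A caller that marks so few cells may have missed doublets.

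Cells were clustered in Seurat 5.3.0 (2000 variable genes, canonical correlation alignment, 30 dimensions, resolution 0.8; ECs again with 20 dimensions and resolution 0.6). Kit, Kitl and the listed genes were left out of the variable genes, and for ECs also 331 genes called there. A name needed 3 markers in at least 10% of cells with a log2 fold of at least 1 over other cells. For clusters within ECs (gCap, aCap, artery, vein and lymphatic), any level above that of the other ECs counted instead. Names were rebuilt here and can differ from those of the study. Counts were summed per library and class and tested in edgeR 4.0.16 (R 4.3.3; TMM, filterByExpr, no covariate; SE = size of the log2 fold change divided by the square root of F). Classes with under 10 cells in a library were not tested. The pipeline was tested on simulated data. Shares have Wilson and levels exact Poisson intervals (95%). They cover counting error only, as does the limit of 3 UMIs used for a count of 0. Alternatives were relative log expression (RLE) size factors, DESeq2 1.42.0, no filter on low counts, leaving out each library, a replicate block, no doublets, at most 10% mitochondrial UMIs, no alignment, resolution 0.4, a marker gate for ECs, and thinning to 1000 UMIs. Named genes were Kit and Kitl, of each list the called members (at most 6) and the 2 most abundant, and the 5 genes most like each. The members and lists were chosen with earlier results of these data known. Gene models came from GENCODE vM21 and promoter letters from RefSeq (GRCm38.p6), both genes being matched. Replicates are mice, and p-values measure the spread between these few. Leaving out a library left 1 in its group, so the spread then came from the other group alone.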

Additional observations from a re-analysis of the deposited data

Results flagged for a closer look

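The change of Kitl differed between the capillary classes by a test of the difference itself. On the log2 scale, the change in aCap ECs minus the change in gCap ECs was −1.44 (SE 0.17, adjusted p = 2.63e-06, edgeR, each library as a block). Kitl was lower in ERG CKO than in WT in aCap ECs in 2 of 2 libraries and higher in gCap ECs in 2 of 2 libraries.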

How the results depend on the processing

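Kitl in aCap ECs passed the limit in 15 of 15 alternatives (−1.24 to −0.88 with a library left out, −1.62 to −0.80 otherwise), and the difference of its change between the capillary classes in 14 of 14. Kit in ECs passed in 11 of 15 and was negative in 15. With ECs taken by a marker gate it was −0.66 (adjusted p = 0.0659), without cells that held over 2 UMIs of other classes' markers, a choice made after the data were seen, −0.56 (0.0763), and with a library left out −0.75 to −0.55. Kit in gCap ECs passed in 3 of 15. It was −0.53 with no filter on low counts, and −0.61 to −0.45 with a library left out. The replicate block gave −0.53 (adjusted p = 0.00038) for Kit and 0.37 (0.0356) for Kitl in gCap ECs. Same-numbered libraries deviated together at r = 0.304 in ECs, 0.280 in gCap ECs, 0.133 in aCap ECs and −0.01 in fibroblasts, from 2 pairs that share only a number. With a library left out, Kitl in gCap ECs was 0.17 to 0.56 and Kit in aCap ECs −2.46 to 0.12. The other alternatives gave 0.10 to 0.47 and −0.83 to 0.72. For Kitl they gave −0.20 to 0.35 in fibroblasts and −0.38 to 0.23 in mesenchyme, where it passed in 0 of 13 alternatives each. The difference of the Kit change between the classes turned to 1.05 with the capillary marker gate, and Fli1 in gCap ECs to −0.10 without alignment. The cause was not tested.

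Counts of called genes moved more. For genes called in ECs (331) there were 1149 with no filter on low counts, 905 with the replicate block, 156 with the marker gate, 215 with cells thinned to 1000 UMIs, and 5 to 935 with a library left out. For genes called in gCap ECs (324) there were 172 with DESeq2, 734 with no filter, 1008 with the replicate block, 1 without alignment, 66 thinned, 49 with the capillary marker gate, and 112 to 656 with a library left out. For genes called in aCap ECs (816) there were 327 with DESeq2, 174 thinned, and 516 to 741 with a library left out. For genes called in fibroblasts (64) there were 28 with DESeq2, 195 with no filter, 41 with the replicate block, 41 with at most 10% mitochondrial UMIs, 19 thinned, and 71 to 226 with a library left out. Kit in aCap ECs could not be fitted with thinned cells, nor could fibroblasts and mesenchyme without cells that held endothelial UMIs. ERG CKO replicate 2 held 16 mural cells and 4 Kit UMIs in its aCap ECs.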
